A study of Bos taurus with 38 samples.

Results

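JUN, NFKB1, IER3 and CITED2 are 4 genes whose products act early when a cell responds to a signal, and they are described here in single cattle oocytes and in the cumulus cells around each oocyte. They are 4 of the 27607 gene identifiers counted in each compartment, and all 4 passed the limit on low values in both compartments, which asked for more than 2 CPM (counts scaled to the library total) in 9 or more libraries. The 4 genes were chosen by values of these same libraries. IER3 and CITED2 stand high in the study's own comparison of BCB positive with BCB negative oocytes, and CITED2, NFKB1 and JUN appear among its correlations between oocyte and cumulus genes. The values of the 4 genes in those 2 analyses are therefore given as a description, with no test. The other comparisons, of cumulus cells, of the 2 compartments and of complexes of different numbers, are tested. As far as the sources tell, they were not themselves used in that choice. They draw on the same libraries, so their p-values for the 4 genes are not independent of it.

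JUN (ENSBTAG00000004037) encodes a subunit of AP-1, a pair of transcription factors that is made and activated within minutes of many stimuli. NFKB1 (ENSBTAG00000020270) encodes p105, which retains NF-kB proteins in the cytoplasm and is the precursor of the DNA-binding subunit p50. IER3 (ENSBTAG00000011358) is an immediate early response gene, a target of NF-kB among other factors, whose product acts on cell survival. CITED2 (ENSBTAG00000011224) encodes a coregulator without DNA binding of its own, which binds CBP and p300 and competes there with the hypoxia factor HIF1A. In the ovary, cumulus cells are transcriptionally active somatic cells that respond to gonadotropins, whereas an oocyte near the end of its growth lowers its transcription and keeps stored transcripts.

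The complexes came from ovaries of slaughtered cattle, with oocytes of homogeneous cytoplasm and compact cumulus, and no breed or age is given in the sources used here. All of them were exposed to brilliant cresyl blue (BCB), a dye that keeps its color in oocytes that have completed their growth (BCB positive) and is lost in oocytes that have not (BCB negative). By the paper's methods, ovaries were transported from an abattoir, and complexes were separated in trypsin drops by pipetting before the cells were frozen. Oocytes were also washed before freezing. Each of 19 complexes gave 1 library of the single oocyte and 1 of a group of its cumulus cells, 9 of them BCB positive and 10 BCB negative. The complex numbers fall into 3 runs, which the labels do not call batches: 6 to 24 with 3 BCB positive complexes and 1 BCB negative complex, 65 to 74 with 6 and 3, and 86 to 91 with 0 and 6. Libraries held 8886070 to 29810354 counts in oocytes and 1103200 to 10430148 in cumulus cells, and the median in cumulus cells was 5853816 in BCB positive and 2252271 in BCB negative complexes. Transcripts of 13 mitochondrially encoded proteins made up a median of 1.38% of the cumulus counts in BCB positive and 7.59% in BCB negative complexes. Nothing in the labels says whether 2 complexes came from 1 animal, so p-values measure the spread between complexes.

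Levels are given as TMM-scaled CPM. TMM is a factor for each library that centers most genes, and 1 common scale was made from all 38 libraries and the 10281 genes that passed in both compartments. With library totals alone, the median of all genes moved by 0.47 on the log2 scale in the cumulus comparison of BCB classes, by 0.77 in the same comparison within complexes 65 to 74, by 0.57 between compartments, by 0.36 between runs in BCB negative cumulus cells and by -0.36 in the difference between compartments of that run effect, so every change is given relative to the median gene. No gene length was used, and levels are therefore not compared between genes. A change of a transcript in a group of cumulus cells can come from fewer cells that hold it or from less of it per cell, and these cannot be told apart.

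The labels were checked against marker genes. The oocyte markers ZP2 and ZP3, which encode zona pellucida proteins, summed to 2493 to 4694 TMM-scaled CPM in oocytes, and to at most 1.63 in BCB positive cumulus cells. In BCB negative cumulus cells they summed to 0.363 to 118, with 95.3 in complex 66 and 118 in complex 68. For 9 of 12 cumulus and granulosa markers an identifier was known, FSHR, INHA, INHBA, CYP11A1, CYP19A1, HSD3B1, FOXL2, NR5A1 and VIM, and they summed to 6934 to 25361 in cumulus cells and to 7.78 to 2252 in oocytes. In 5 oocytes this sum was above 1% of that of their own cumulus cells: 8.88% in complex 72, 3.51% in complex 88, 3.44% in complex 74, 2.81% in complex 89 and 2.05% in complex 70. FSHR, CYP11A1 and FOXL2 were each at 0 in 2 of 19 oocytes, and ZP2 was at 0 in 7 of 19 cumulus libraries. The endothelial marker VWF, the only one of 3 with an identifier, was at 14.0 to 74.7 in oocytes and at 0.687 to 40.2 in cumulus cells, and no identifier was known for the theca, leukocyte and erythroid markers.

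**Figure D1:**
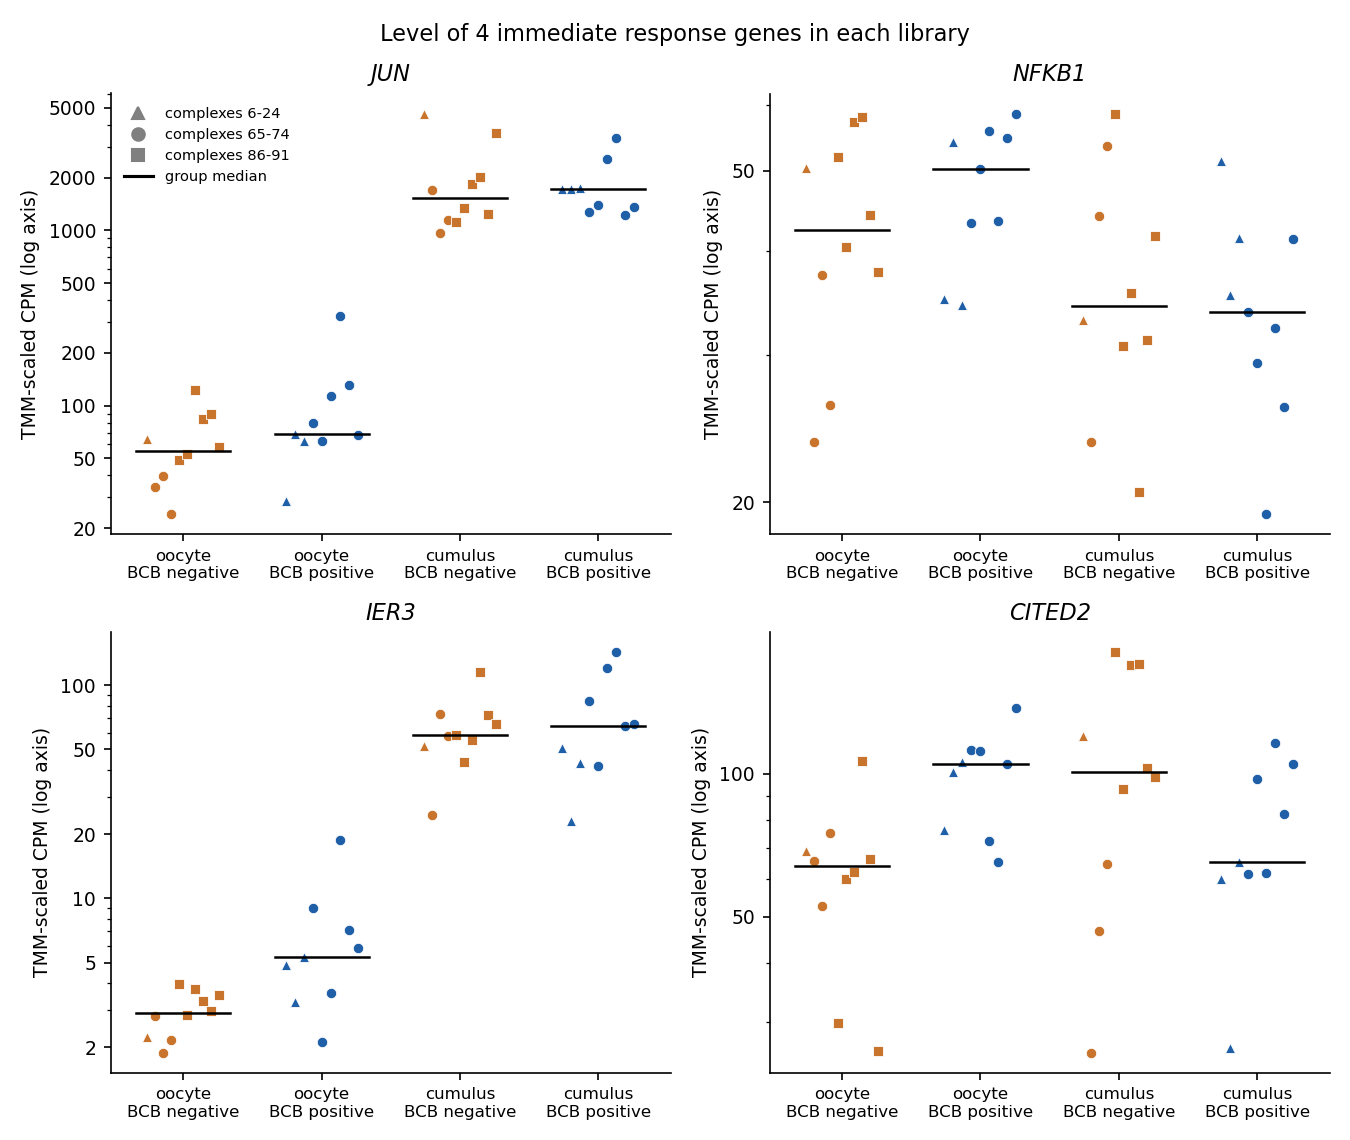
Level of JUN, NFKB1, IER3 and CITED2 in each of the 38 libraries, in TMM-scaled CPM on a log axis of its own for each gene, by compartment and BCB class. Symbols give the run of complex numbers (triangles, 6 to 24; circles, 65 to 74; squares, 86 to 91) and lines the group median. JUN and IER3 of oocytes lie below every cumulus library, while NFKB1 and CITED2 of both compartments overlap.

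The first question was how oocytes and cumulus cells differed in these genes. JUN and IER3 were far lower in oocytes than in cumulus cells, whereas NFKB1 and CITED2 overlapped between both and did not pass the test. JUN ran from 23.97 to 326 TMM-scaled CPM in oocytes, with a median of 64.8, and from 959.7 to 4634 in cumulus cells, with a median of 1708. IER3 ran from 1.89 to 18.8 in oocytes, with a median of 3.51, and from 23.1 to 143 in cumulus cells, with a median of 58.5. For both genes the highest oocyte was below the lowest cumulus library, as for 21.2% of all genes that lay lower in oocytes without overlap. The oocyte level was 0.0421 times the cumulus level for JUN, a log2 fold change of -4.57 ± 0.29 (SE) with an adjusted p of 3.18e-18 in edgeR's quasi-likelihood test over 38 libraries with the BCB class as covariate. For IER3 the factor was 0.0669 and the log2 fold change -3.90 ± 0.25 (SE), with an adjusted p of 3.61e-18 in the same test. So 2 of the 4 genes were called, in a comparison that called 85.3% of all genes and 42.7% as lower in oocytes. The calls were 4386 higher and 4385 lower, and 5457 higher and 3181 lower with library totals alone. Without the 5 oocytes above 1% of the cumulus markers the values were -4.90 for JUN and -4.09 for IER3, at least as far from 0 as with them. The part of transport, separation and washing before freezing in these differences was not tested.

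NFKB1 ran from 23.6 to 58.4 TMM-scaled CPM in oocytes, with a median of 44.2, and from 19.3 to 58.5 in cumulus cells, with a median of 33.8. The groups overlapped over nearly their whole range. The log2 fold change was 0.35 ± 0.13 (SE), with an adjusted p of 0.0117 by edgeR's quasi-likelihood test, which is not under the threshold of 0.01. This call depended on the processing: NFKB1 passed under 7 of 9 alternatives, among them DESeq2 (adjusted p = 0.00599) and library totals alone (log2 fold change 0.95), and it did not pass with the complex as a replicate block (0.36, adjusted p = 0.0203 by edgeR) or without the 5 oocytes above 1% of the cumulus markers (0.25, adjusted p = 0.0931, the highest of the 9). CITED2 had a median of 72.2 in oocytes (range 26.1 to 138) and of 92.8 in cumulus cells (range 25.9 to 181). Its log2 fold change of -0.25 ± 0.21 (SE) did not pass (adjusted p = 0.269, edgeR quasi-likelihood test), and turned to 0.31 with library totals alone.

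Since the oocyte and the cumulus cells of a complex carry 1 number, each oocyte was set beside its own cumulus cells. The JUN level of the oocyte was 1.40% to 10.8% of that of its cumulus cells, with a median of 4.17%, and it was lower in 19 of 19 complexes. For IER3 the share was 2.56% to 14.1%, with a median of 6.74%, again lower in 19 of 19 complexes. NFKB1 was higher in the oocyte in 12 of 19 complexes, and among complexes 65 to 74 in 6 of 6 BCB positive and 0 of 3 BCB negative complexes. In 1 of those 3, complex 65, the oocyte stood at 99.99% of its cumulus cells, which is no difference at this depth.

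CITED2 was higher in the oocyte in 11 of 19 complexes, and the median of the 19 log2 differences, 0.19, had the opposite sign from the fitted difference of the compartments. It was higher in the oocyte in 8 of 9 BCB positive complexes, the exception being complex 72 with 56.2% of the cumulus level, and in 3 of 10 BCB negative complexes. Those 3 were complexes 65, 66 and 68. In all 6 complexes from 86 to 91 the oocyte had less CITED2 than its cumulus cells, with shares of 16.6% to 64.9%. As the oocyte contrast of BCB classes was used in the choice of CITED2, whether the BCB difference was another in oocytes than in cumulus cells was not tested.

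**Figure D2:**
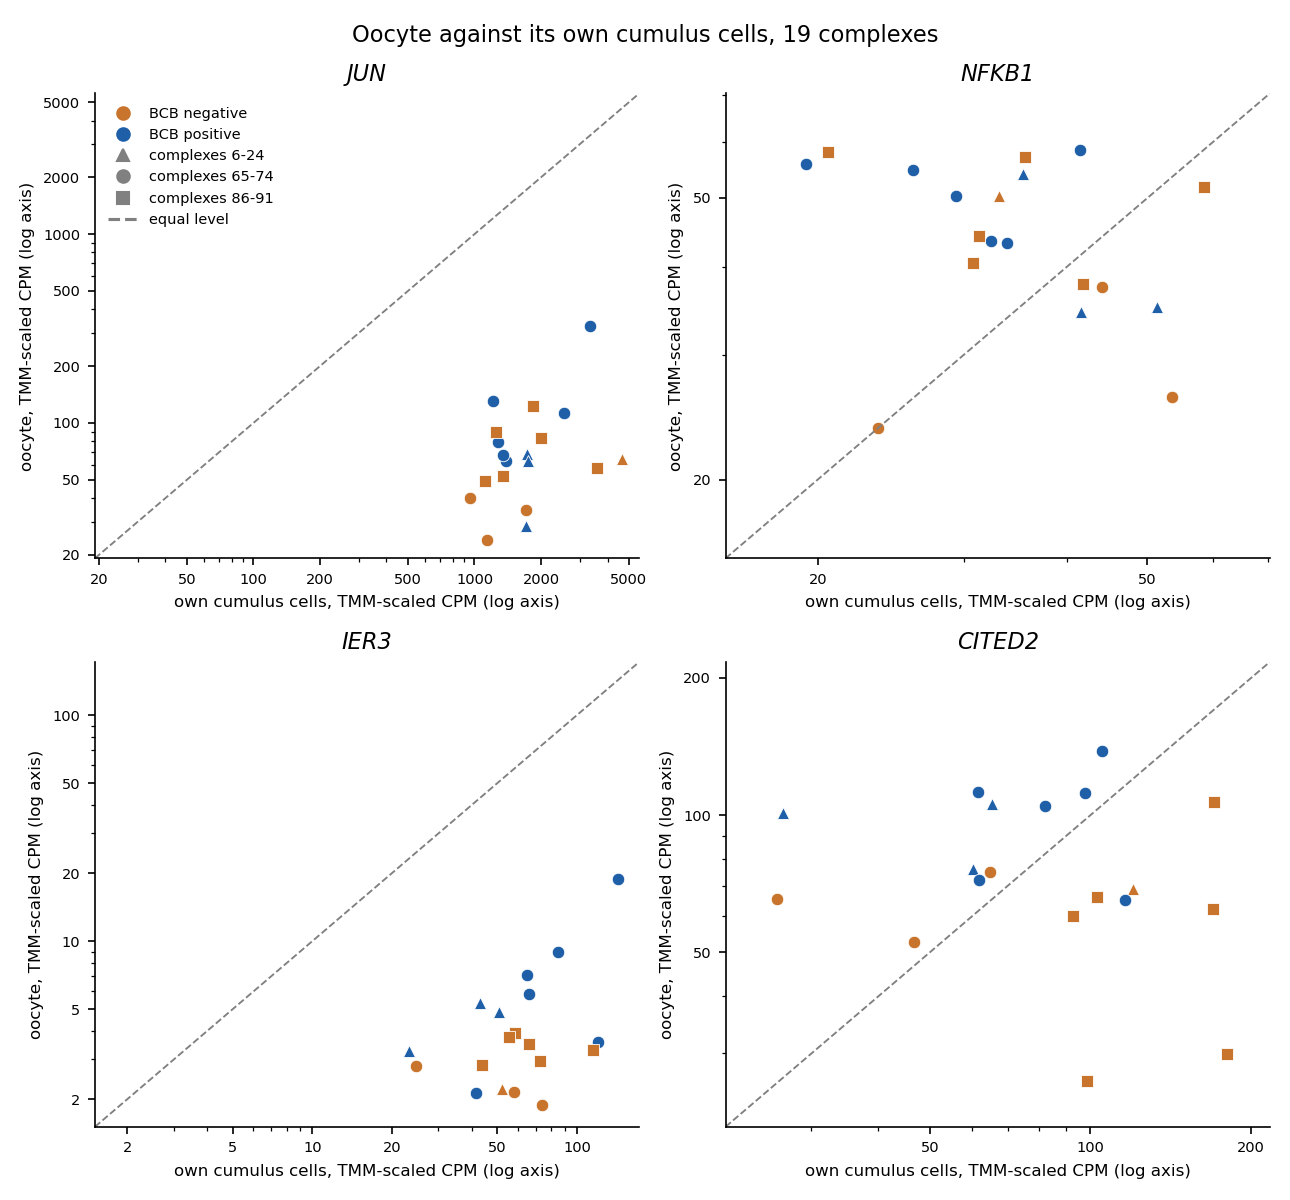
Level in the oocyte against the level in its own cumulus cells for each of 19 complexes, in TMM-scaled CPM on log axes, with colors for the BCB class, symbols for the run of complex numbers and a dashed line of equal level. All complexes lie below the line for JUN and IER3, and 12 and 11 of 19 lie above it for NFKB1 and CITED2.

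Next, cumulus cells were compared by the BCB class of their oocyte. None of the 4 genes passed the test. JUN ran from 959.7 to 4634 TMM-scaled CPM in BCB negative cumulus cells, with a median of 1525, and from 1217 to 3342 in BCB positive cumulus cells, with a median of 1716. The 3 BCB positive libraries of complexes 6 to 24 lay between 1716 and 1741, and the highest JUN level of all was in complex 6, the BCB negative complex of that run. The log2 fold change, BCB positive over BCB negative, was -0.10 ± 0.28 (SE), with an adjusted p of 0.892 in edgeR's quasi-likelihood test. NFKB1 had medians of 34.4 and 33.8 in BCB negative and BCB positive cumulus cells, with ranges of 20.6 to 58.5 and 19.3 to 51.4, and a log2 fold change of -0.07 ± 0.19 (SE). Both values had the opposite sign with library totals alone, at 0.42 for JUN and 0.43 for NFKB1, and JUN also without complex 6, at 0.14.

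IER3 ran from 24.8 to 115 TMM-scaled CPM in BCB negative cumulus cells, with a median of 58.3, and from 23.1 to 143 in BCB positive cumulus cells, with a median of 64.6. Its log2 fold change was 0.20 ± 0.29 (SE), with an adjusted p of 0.754 in edgeR's quasi-likelihood test, and it was all but 0 without complex 72, the library highest in IER3. CITED2 ran from 25.9 to 181 in BCB negative and from 26.5 to 116 in BCB positive cumulus cells, with medians of 101 and 65.3. The groups overlapped over most of their range, and the difference of -0.51 ± 0.30 (SE) did not pass (adjusted p = 0.364, edgeR quasi-likelihood test). Thus 0 of 4 genes were called, and 0 at an unadjusted p under 0.05, 0 by DESeq2 and 0 by edgeR's likelihood-ratio test without TMM, in a comparison that called 0.56% of all 12313 genes, 5 higher and 64 lower. That share depends on the scaling: with library totals alone 1601 genes were higher and 103 lower. Of all 12313 genes 2299 had an unadjusted p under 0.05 there, and 364 were called by DESeq2 and 2480 by the likelihood-ratio test. The log2 fold change of CITED2 was 0.21 with the run of complex numbers as a covariate (adjusted p = 0.788 by edgeR, in a range of 0.206 to 0.838 over 10 alternatives), the opposite sign from that without it. With the log10 library total as covariate it was -1.10 (adjusted p = 0.248 by edgeR).

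Within complexes 65 to 74, the 1 run with 3 or more complexes of each class, CITED2 of the 3 BCB negative cumulus libraries was 25.9, 46.8 and 64.7 TMM-scaled CPM, and that of the 6 BCB positive libraries 61.6 to 116, with a median of 90.01. All but 1 of the BCB negative values lay below all BCB positive values. The log2 fold change was 0.99 ± 0.31 (SE), opposite in sign to that over all complexes, with an unadjusted p of 0.00638 and an adjusted p of 0.151 in edgeR's quasi-likelihood test. CITED2 passed with library totals alone (1.77, adjusted p = 0.00302 by edgeR), where the median of all genes had moved by 0.77 in the same direction, and with no filter on low counts (1.15, adjusted p = 0.00675 by edgeR), in a range of adjusted p from 1.24e-05 to 0.184 over 7 alternatives. JUN (0.56 ± 0.36 SE), IER3 (0.74 ± 0.43 SE) and NFKB1 (-0.37 ± 0.29 SE) did not pass in this run either. NFKB1 turned to 0.41 with library totals alone. These 9 libraries are also part of the comparison over all complexes. In all, 0 of 4 genes were called, 1 had an unadjusted p under 0.05, 0 were called by DESeq2 and 3 by the likelihood-ratio test without TMM, while 0.682% of all genes were called, 1 higher and 83 lower, or 2214 higher and 93 lower with library totals alone. Of all 12313 genes 1867 had an unadjusted p under 0.05 there, and 266 were called by DESeq2 and 3892 by the likelihood-ratio test. The 3 BCB negative cumulus libraries of this run held 1103200 to 1650795 counts and the 6 BCB positive libraries 4386946 to 10430148, and complexes 66 and 68 also carried the most oocyte markers. The part of depth and of oocyte RNA in these differences was not tested.

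In oocytes the BCB classes are described without a test, since this contrast was used in the choice of the genes. Of all 12753 genes 0% were called in it by edgeR's quasi-likelihood test, with 711 at an unadjusted p under 0.05, and 0 by DESeq2 or by the likelihood-ratio test without TMM, so the differences below belong to a comparison without called genes. IER3 had a median of 2.90 TMM-scaled CPM in BCB negative oocytes (range 1.89 to 3.95) and of 5.33 in BCB positive oocytes (range 2.12 to 18.8), and 6 of 9 BCB positive oocytes, complex 72 among them, stood above all BCB negative ones. These levels rest on 20 to 484 counts per oocyte. The difference was 1.15 ± 0.30 (SE) on the log2 scale, and 0.79 without the oocyte of complex 72. CITED2 had a median of 63.9 in BCB negative oocytes (range 26.1 to 107) and of 105 in BCB positive oocytes (range 65.2 to 138), a log2 difference of 0.67 ± 0.20 (SE). The lowest BCB positive oocyte, that of complex 72, was above the median of the BCB negative oocytes.

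JUN had a median of 55.2 TMM-scaled CPM in BCB negative oocytes (range 23.97 to 123) and of 68.6 in BCB positive oocytes (range 28.5 to 326). Its log2 difference of 0.73 ± 0.36 (SE) was 0.31 without the oocyte of complex 72. NFKB1 had medians of 42.4 and 50.3, with ranges of 23.6 to 58.0 and 34.5 to 58.4, and a log2 difference of 0.15 ± 0.16 (SE). With the run of complex numbers as a covariate the log2 differences were 1.19 for JUN, 0.45 for NFKB1, 1.498 for IER3 and 0.56 for CITED2.

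Within complexes 65 to 74, JUN was 34.4, 39.8 and 23.97 TMM-scaled CPM in the BCB negative oocytes of complexes 65, 66 and 68. In the 6 BCB positive oocytes it ran from 63.2 to 326, with a median of 96.3. NFKB1 was 23.6, 37.5 and 26.1 in the same BCB negative oocytes, and 43.2 to 58.4 in the BCB positive oocytes, with a median of 52.5. Neither gene overlapped between the classes in this run, which was so for 4.87% of all genes higher in BCB positive oocytes, and nothing is read from that count, since the contrast is part of the choice. IER3 was 2.81, 1.89 and 2.16 in the BCB negative oocytes and 2.12 to 18.8, with a median of 6.47, in the BCB positive oocytes. CITED2 was 65.6, 52.7 and 75.2 in the former and 65.2 to 138, with a median of 108, in the latter. The log2 differences were 1.95 ± 0.56 (SE) for JUN, 0.78 ± 0.18 (SE) for NFKB1, 1.72 ± 0.60 (SE) for IER3 and 0.62 ± 0.24 (SE) for CITED2.

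**Figure D3:**
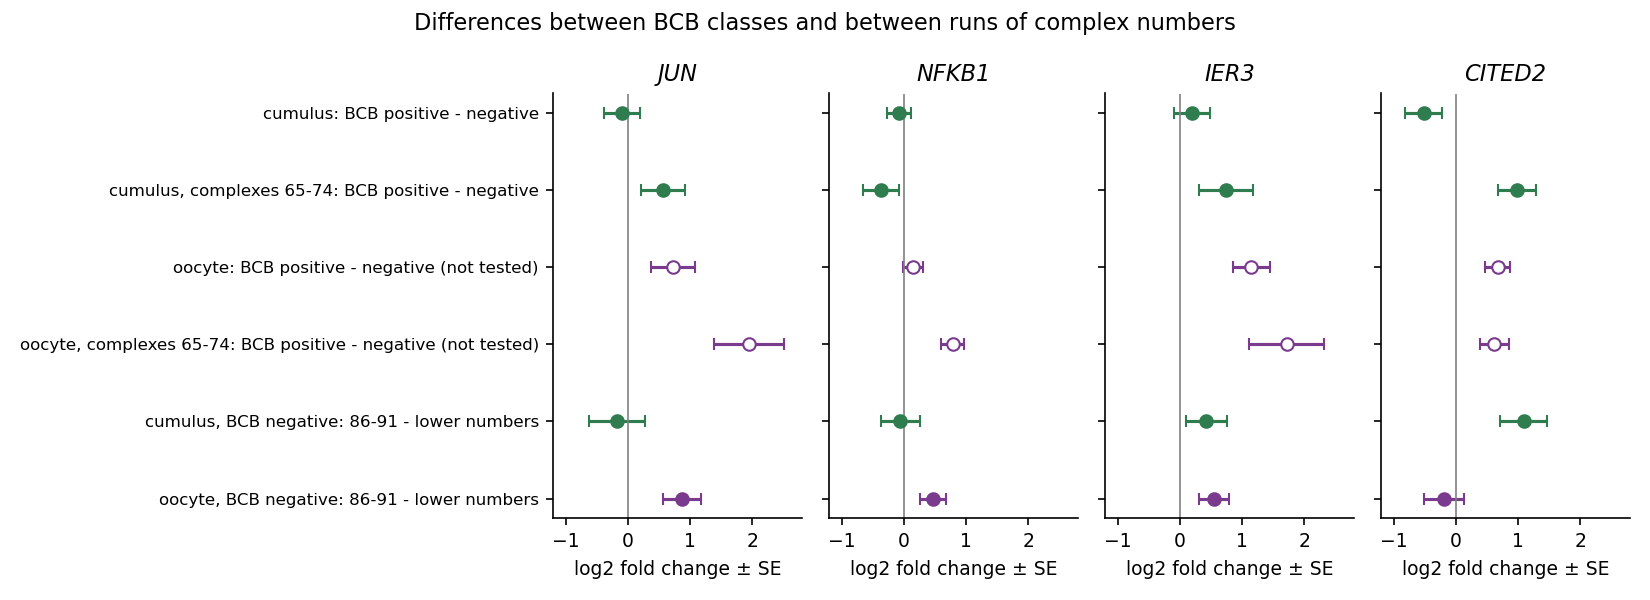
Log2 fold changes with their standard errors for the 4 genes in 6 comparisons within a compartment, green for cumulus cells and violet for oocytes, with open symbols where the contrast was used in the choice of the genes and is not tested. None of the filled symbols passed an adjusted p of 0.01, and CITED2 of cumulus cells lies left of 0 over all complexes and right of 0 within complexes 65 to 74.

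The cumulus markers moved with some of these oocyte values. Their sum had a median of 18.5 TMM-scaled CPM in BCB negative oocytes (range 7.78 to 607) and of 74.9 in BCB positive oocytes (range 14.7 to 2252). The oocyte of complex 72 had the highest sum, the highest JUN and the highest IER3. Its JUN was 9.75% and its IER3 13.1% of the level in its own cumulus cells, beside 8.88% for the markers. Its NFKB1 (43.5) and CITED2 (65.2) were not high among oocytes. High JUN was also seen with few markers: the oocyte of complex 73 had 131 JUN and 7.11 IER3 at a marker sum of 26.5. Over the 19 oocytes Pearson's r with the log2 marker sum was 0.67 for JUN, 0.56 for IER3, 0.43 for NFKB1 and 0.25 for CITED2, with a median of -0.01 over all genes and 0.51 at their 95th percentile. Without the 2 oocytes of most extreme marker sums it was 0.38 for JUN and 0.31 for IER3, lower than over all 19, and 0.53 for NFKB1 and 0.49 for CITED2, higher than over all 19. Without the 5 oocytes above 1% it was 0.44 for JUN, 0.61 for IER3, 0.35 for NFKB1 and 0.17 for CITED2, over 14 oocytes. These are descriptions over libraries that share depth and BCB class, and the part of cumulus RNA in the oocyte differences was not tested. Without those 5 oocytes the BCB differences in oocytes were 0.63 for JUN, 0.24 for NFKB1, 0.96 for IER3 and 0.76 for CITED2 on the log2 scale.

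**Figure D4:**
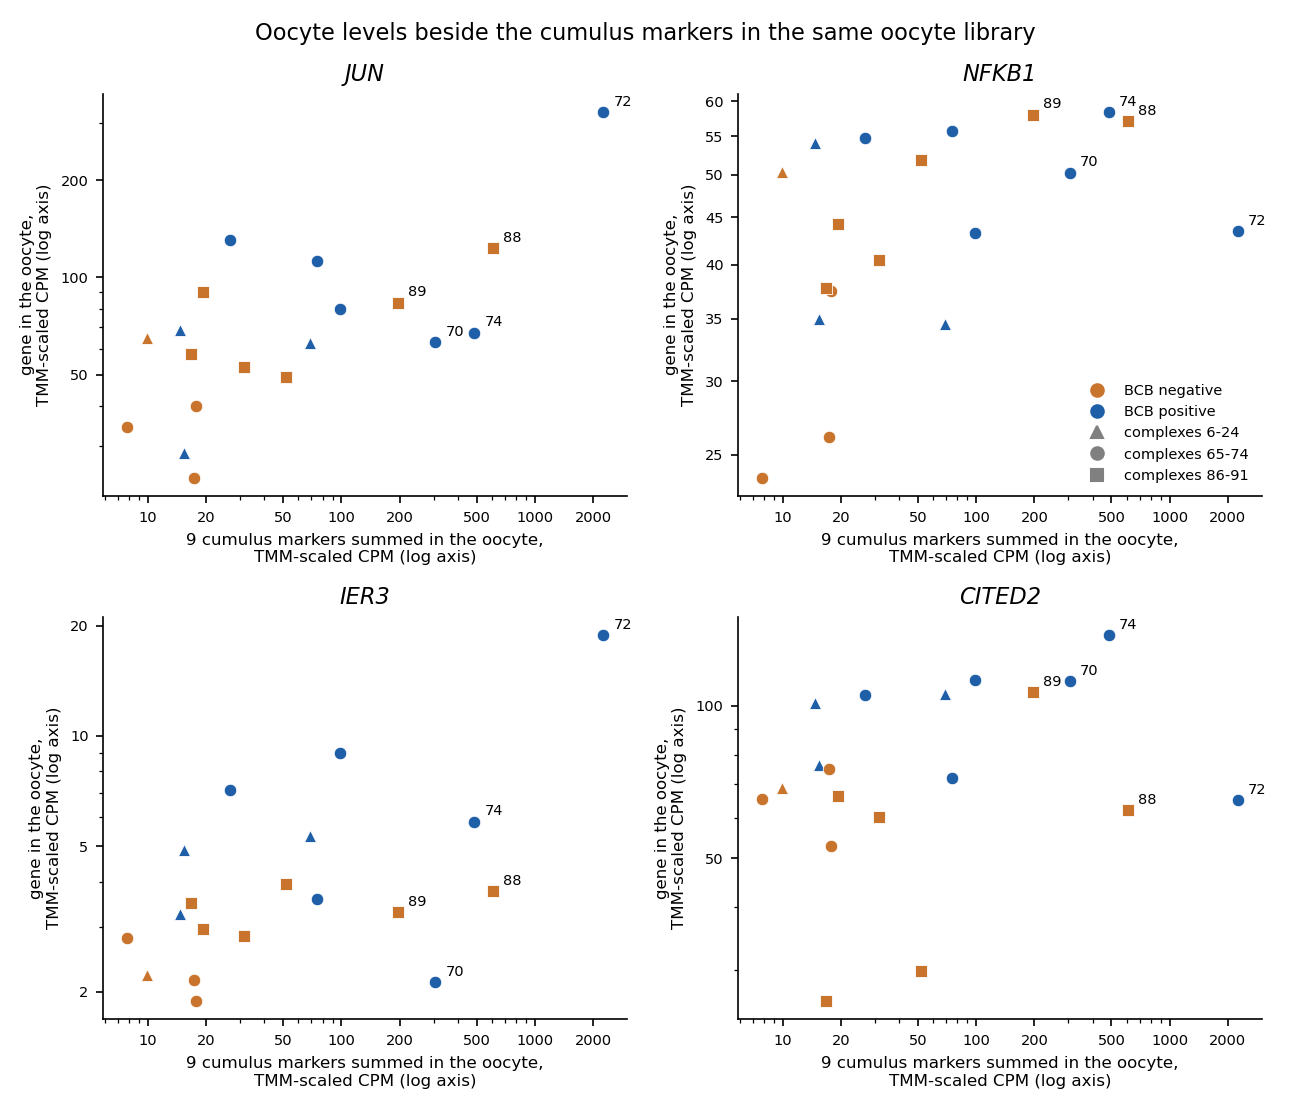
Level of each gene in the oocyte against the summed level of 9 cumulus markers in the same oocyte library, both in TMM-scaled CPM on log axes, with complex numbers at the 5 oocytes above 1% of their own cumulus cells. Complex 72 stands at the upper right for JUN (326) and IER3 (18.8), and inside the range of the others for NFKB1 and CITED2.

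Because BCB class and run of complex numbers are partly confounded, the run was compared within BCB negative complexes, 6 of the run from 86 to 91 against the 4 of lower numbers. In oocytes JUN was 64.8, 34.4, 39.8 and 23.97 TMM-scaled CPM in complexes 6, 65, 66 and 68, and 49.0 to 123 in complexes 86 to 91, with a median of 70.6. The log2 difference of 0.87 ± 0.30 (SE) did not pass (adjusted p = 0.104, edgeR quasi-likelihood test). NFKB1 was 50.3, 23.6, 37.5 and 26.1 in the 4 earlier oocytes, and 37.8 to 58.0 in the later ones. For both genes complex 6 lay within the later oocytes and the 3 oocytes of complexes 65 to 68 lay below all of them.

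IER3 was 2.23, 2.81, 1.89 and 2.16 TMM-scaled CPM in the earlier BCB negative oocytes, and 2.84 to 3.95 in the later ones. These 2 groups did not overlap on the common scale, though they did when the oocytes were scaled on their own, and 3.47% of all genes were higher in the later oocytes without overlap on that scale. The log2 differences were 0.54 ± 0.24 (SE) for IER3, 0.46 ± 0.21 (SE) for NFKB1 and -0.19 ± 0.33 (SE) for CITED2, none of which passed (adjusted p = 0.180, 0.189 and 0.737, edgeR quasi-likelihood test). So 0 of 4 genes were called, 3 had an unadjusted p under 0.05, and 0 were called by DESeq2 or by the likelihood-ratio test without TMM, beside 0.047% of all genes. Of all 12753 genes 3210 had an unadjusted p under 0.05 there, and 621 were called by DESeq2 and 396 by the likelihood-ratio test. CITED2 varied most of the 4 genes among the later oocytes, from 26.1 in complex 91 and 29.9 in complex 86 to 107 in complex 89.

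In BCB negative cumulus cells CITED2 was 120, 25.9, 46.8 and 64.7 TMM-scaled CPM in complexes 6, 65, 66 and 68, and 92.8 to 181 in complexes 86 to 91, with a median of 136. The 3 libraries of complexes 65 to 68 lay below all later ones, and complex 6 lay among them. The log2 difference was 1.09 ± 0.38 (SE), with an unadjusted p of 0.0109 and an adjusted p of 0.981 in edgeR's quasi-likelihood test. JUN (-0.18 ± 0.45 SE), NFKB1 (-0.06 ± 0.31 SE) and IER3 (0.43 ± 0.33 SE) did not pass either, and the signs of JUN and NFKB1 turned with library totals alone (0.12 and 0.25). Without complex 6, JUN turned to 0.57, and CITED2 did not pass in any fit that left out 1 of the 10 libraries. Here 0 of 4 genes were called, 1 had an unadjusted p under 0.05 and 0 were called by DESeq2 or by the likelihood-ratio test without TMM. Of all 12313 genes 0% were called, with 590 at an unadjusted p under 0.05, 3 called by DESeq2 and 2 by the likelihood-ratio test.

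Whether the run effect was another in oocytes than in cumulus cells was tested as an interaction over the 20 libraries of BCB negative complexes. In the main fit CITED2 had the largest interaction of the 4 genes, -1.21 ± 0.53 (SE) on the log2 scale, with an unadjusted p of 0.0313 and an adjusted p of 0.405 in edgeR's quasi-likelihood test. Over 9 alternatives CITED2 ran from -1.60 to -0.99 and JUN from 0.81 to 1.73, so their order depended on the processing. Those of JUN (1.12 ± 0.59 SE), NFKB1 (0.58 ± 0.39 SE) and IER3 (0.17 ± 0.39 SE) did not pass, and that of IER3 was -0.19 with library totals alone. Again 0 of 4 genes were called, with 1 at an unadjusted p under 0.05 and 0 by DESeq2 or the likelihood-ratio test, and 0% of all genes, with 1144 at an unadjusted p under 0.05, 35 by DESeq2 and 23 by the likelihood-ratio test.

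The 4 genes varied between libraries to different degrees. In oocytes the coefficient of variation over 19 libraries was 82.5% for IER3 and 80.6% for JUN, beside 37.2% for CITED2, 23.7% for NFKB1 and a median of 21.4% over all genes. Of all genes 98.2% varied less than JUN and 98.3% less than IER3, and complex 72 is part of both values. Without that oocyte the coefficients were 44.8% for JUN and 48.1% for IER3, with a median of 21.2% over all genes, and 93.2% and 94.7% of genes varied less. In cumulus cells the coefficients were 51.7% for JUN, 49.1% for CITED2, 47.3% for IER3 and 30.0% for NFKB1, with a median of 31.5% over all genes. NFKB1 was thus the steadiest of the 4 in both compartments.

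The wider pathways were followed through 4 lists of genes, chosen with earlier results of these data known. Symbols come from copies of the study's supplementary tables, and the copies of its long tables of BCB comparisons were truncated to their rows of lower p. A gene without a symbol here may thus have one in the full tables, and the named members of a list are not a fair sample of it and nothing is read from their counts about the whole list. Between compartments the background of every list is the 85.3% of all genes called, 42.7% as higher and 42.7% as lower in oocytes, around a median of 0.00. Of 12 AP-1 genes 5 were named and 4 tested between compartments, and all 4 were lower in oocytes. FOS fell by 5.93 ± 0.75 (SE) on the log2 scale, FOSB fell by 5.56 ± 0.47 (SE) and JUND fell by 1.59 ± 0.14 (SE), all partners of JUN. FOS had 0.786 to 355 TMM-scaled CPM in oocytes and 416 to 3689 in cumulus cells, without overlap, as for 21.2% of all genes lower in oocytes. The median over the 4 was -5.07. By edgeR's quasi-likelihood test no AP-1 gene was called in the other tested comparisons. Other fits called 1 of 5 as higher in the later BCB negative oocytes, by DESeq2 and by the likelihood-ratio test. In cumulus cells by BCB class 1 of 4 was higher by the likelihood-ratio test and with library totals alone, and within complexes 65 to 74 2 of 4 by the likelihood-ratio test, where 2.29%, 2.41%, 18.9%, 13% and 30.5% of all genes were higher in the same order.

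Of 16 NF-kB genes 8 were named and 7 tested, of which 6 were higher in oocytes, 0 were lower and NFKB1 did not pass, beside 42.7% of all genes called as higher. The largest rises were those of MAP3K14, the kinase that starts the noncanonical pathway (2.62 ± 0.17 SE), BCL3, a nuclear partner of p50 (2.44 ± 0.19 SE), IKBKB, a catalytic subunit of the IkB kinase (1.76 ± 0.10 SE), NFKBIB, an inhibitor that retains NF-kB in the cytoplasm (1.75 ± 0.11 SE), and IKBKG, the regulatory subunit of that kinase (0.83 ± 0.15 SE). All of them passed an adjusted p of 0.01 in edgeR's quasi-likelihood test. IKBKB had 51.1 to 86.1 TMM-scaled CPM in oocytes and 7.88 to 25.7 in cumulus cells. The median over the 7 was 1.75. With DESeq2 or with library totals alone, where NFKB1 also passed, 7 of 7 were higher, beside 43.3% and 53.1% of all genes. In cumulus cells by BCB class 1 of 8 was called, beside 0.56% of all genes. This was MAP3K8, a kinase that is bound by p105, which was lower in BCB positive complexes (-1.45 ± 0.29 SE, adjusted p = 0.00822, edgeR quasi-likelihood test). MAP3K8 did not pass with library totals alone (-0.99, adjusted p = 0.0159), with the run as covariate (-1.07, adjusted p = 0.146) or with the log10 library total as covariate (-1.66, adjusted p = 0.0890). Without complexes 66 and 68, whose cumulus libraries carried the most oocyte markers, it was -1.58 and did not pass (adjusted p = 0.0111). The likelihood-ratio test called 3 of 8 as higher and 1 as lower, beside 18.9% and 1.23% of all genes, and the fit with library totals alone 1 as higher and 0 as lower, beside 13% and 0.837%. Within complexes 65 to 74, 0 of 8 were called, while 3 were higher by the likelihood-ratio test (beside 30.5% of all genes) and 1 with library totals alone (beside 18%).

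Of 32 immediate early genes 20 were named and 16 tested between compartments, of which 12 were lower in oocytes, 1 was higher and 3 did not pass. The 13 called of 16 stand beside 85.3% of all genes, so that the share called is near the background. FOS, FOSB and JUN are shared with the AP-1 list. EGR1, a zinc finger factor induced by growth signals, fell by 5.56 ± 0.57 (SE) on the log2 scale, and BTG2, an antiproliferative gene, fell by 5.20 ± 0.50 (SE). The 1 gene that was higher, ZFP36L1, which encodes a protein that promotes decay of AU-rich transcripts, was named after its values were seen (3.70 ± 0.28 SE). The median over the 16 was -2.66, and with library totals alone 11 were lower and 2 higher, beside 30.9% and 53.1% of all genes. With the complex as a replicate block 11 were lower and 2 higher too, beside 4289 and 4409 of all 10281 genes. By edgeR's quasi-likelihood test no member of this list was called in the other tested comparisons, in which 16 to 19 members were tested. Other fits called some: 4 of 17 were higher in the later BCB negative oocytes by DESeq2, beside 2.29% of all genes, and 4 by the likelihood-ratio test without TMM, beside 2.41%. In cumulus cells of complexes 65 to 74, 8 of 19 were higher by the likelihood-ratio test, beside 30.5% of all genes, and 3 with library totals alone, beside 18%, so that these shares are near the background. In cumulus cells over all complexes 1 of 19 was lower by DESeq2, beside 2.43% of all genes, and 1 was higher by the likelihood-ratio test, beside 18.9%, and with library totals alone, beside 13%.

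Of 14 genes around CITED2 6 were named and 4 tested between compartments. CITED1, its paralog, fell by 6.13 ± 0.41 (SE) in oocytes, whereas TFAP2B, an AP-2 factor (4.10 ± 0.26 SE), and EPAS1, which encodes the hypoxia factor HIF-2 alpha (2.49 ± 0.19 SE), were higher in oocytes, and CITED2 did not pass. In cumulus cells by BCB class 1 of 6 was called, beside 0.56% of all genes, and within complexes 65 to 74 2 of 6, beside 0.682%, all as lower. EPAS1 was lower in BCB positive than in BCB negative cumulus cells (-1.36 ± 0.23 SE, adjusted p = 0.00490, edgeR quasi-likelihood test), and within complexes 65 to 74 as well (-1.34 ± 0.23 SE). In that run TFAP2A, another AP-2 factor, was lower too (-3.87 ± 0.48 SE), while over all complexes it was -2.52 ± 0.52 (SE) and did not pass (adjusted p = 0.0114, edgeR quasi-likelihood test). Over all complexes 3 of 6 were lower by DESeq2, beside 2.43% of all genes, and 2 of 6 were lower with the run as covariate (beside 0.893%), by the likelihood-ratio test (1.23%), with library totals alone (0.837%) and with no filter (0.57%). Within complexes 65 to 74, 3 were lower by DESeq2, beside 1.9% of all genes. There the likelihood-ratio test called 2 as lower and 1 as higher, beside 1.06% and 30.5% of all genes, and library totals alone 1 and 1, beside 0.755% and 18%. The fit with no filter called 3 as lower and 1 as higher, beside 2.81% and 0.24%. Over all complexes EPAS1 did not pass with the log10 library total as covariate (-1.21, adjusted p = 0.144), nor without complexes 66 and 68, where its value was nearly as large (-1.33, adjusted p = 0.0111). Within complexes 65 to 74, EPAS1 was -0.53 with library totals alone and did not pass (adjusted p = 0.0981). Without complexes 66 and 68 that run keeps 1 BCB negative library, and the fit, in which 0 of all genes were called, gave -1.09 for EPAS1 (adjusted p = 0.218, edgeR) and -3.54 for TFAP2A (adjusted p = 0.0715, edgeR). EPAS1 had 154 to 363 TMM-scaled CPM in oocytes and 24.8 to 138 in cumulus cells, and the part of oocyte RNA in its cumulus difference was not tested. Without the 5 oocytes above 1% of the cumulus markers the counts between compartments were the same in each list, 4 lower for AP-1, 6 higher for NF-kB, 12 lower and 1 higher for immediate early genes, and 2 higher and 1 lower around CITED2. With no filter, genes kept in only 1 compartment were tested too. AP-1 then had 4 lower and 1 higher of 5, and NF-kB 7 higher and 1 lower of 8. Immediate early genes had 15 lower and 3 higher of 20. Around CITED2, 3 were lower and 2 higher of 6, and the median turned from 1.12 to -0.56. Of all 26283 genes that fit called 8340 as higher and 10828 as lower, around a median of -0.66.

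**Figure D5:**
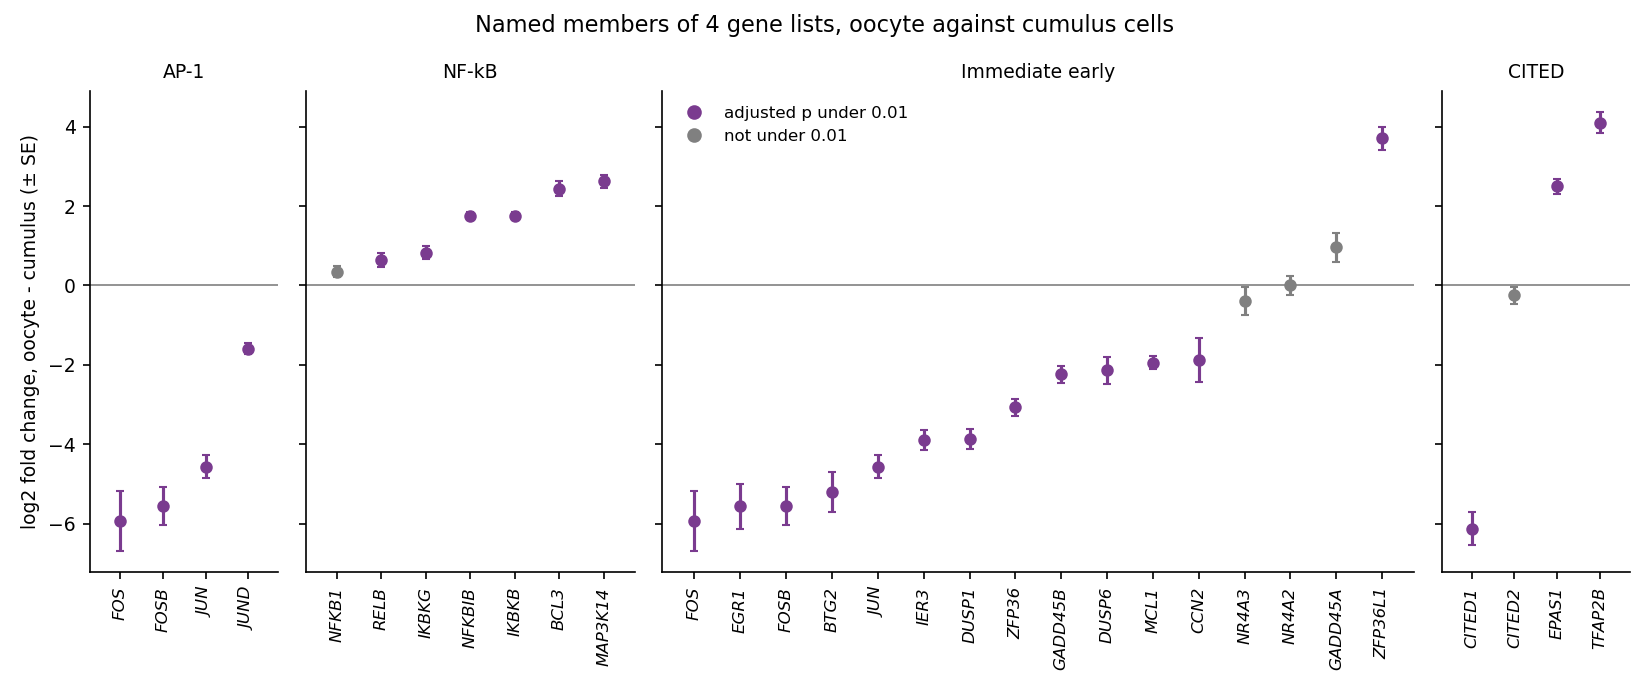
Log2 fold changes of oocytes over cumulus cells, with standard errors, for the named members of 4 gene lists that were tested in both compartments. Violet points passed an adjusted p of 0.01 and grey points did not. The 4 AP-1 members and 12 of 16 immediate early genes passed below 0, the NF-kB members lie above 0, and CITED2 lies between CITED1 at -6.13 and TFAP2B at 4.10.

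The genes whose pattern was most like that of each of the 4 genes were taken from the 4595 other genes with a symbol in oocytes and the 4491 in cumulus cells, by Pearson's r of log2(TMM-scaled CPM + 1) over the 19 libraries of a compartment. In cumulus cells JUN was most like MCL1 (0.86), BRD2 (0.85) and BTG2 (0.83), of which MCL1 and BTG2 are on the immediate early list. IER3 and CITED2 of cumulus cells shared ZFP36, with 0.71 and 0.73. IER3 was further like REPIN1 (0.70) and DNAJB11 (0.68), CITED2 like AMIGO2 (0.82) and LGALS4 (0.75), and NFKB1 like ADGRV1 (0.84), LENG1 (0.79) and SNUPN (0.76).

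In oocytes JUN was most like ECI1 (0.81), PFKP (0.81) and HOXC6 (0.79), and IER3 like PFKFB3 (0.84), SMIM3 (0.83) and MVB12A (0.81). NFKB1 was most like ZDHHC5 (0.86), BRD3 (0.85) and INTS3 (0.84), and CITED2 like MTBP (0.74), SHLD3 (0.66) and SEC13 (0.65). The highest coefficients are picked from all of these genes, genes without a symbol can rank above those named, and none of the 3 named for a gene in one compartment was named for it in the other. Among the 4 genes themselves the highest coefficients in oocytes were 0.65 between JUN and IER3 and 0.56 between JUN and NFKB1, which without the 5 oocytes above 1% of the cumulus markers were 0.45 and 0.77. In cumulus cells the highest was 0.52 between IER3 and CITED2, and JUN and NFKB1 had -0.28.

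Finally, the level of each gene in the oocyte was set against that of the same gene in its own cumulus cells. With values scaled to the library total, Pearson's r over 19 complexes was 0.45 for IER3, 0.38 for JUN, -0.22 for CITED2 and -0.28 for NFKB1, all within the 5th to the 95th percentile of the 10281 genes (-0.35 to 0.49). Spearman's rho was 0.32, 0.34, -0.15 and -0.31. Without the 2 oocytes farthest from the median level, r was 0.09 for both IER3 and JUN, 0.03 for CITED2 and -0.47 for NFKB1. Over the 9 complexes from 65 to 74 it was 0.60 for IER3, 0.70 for JUN, 0.47 for CITED2 and -0.26 for NFKB1. When counts were divided by their TMM factors but not by library totals, the form that the published code uses, coefficients were higher. On those values all 4 were positive, 0.67 for IER3, 0.76 for JUN, 0.70 for CITED2 and 0.49 for NFKB1, with a median of 0.31 over all genes and a 5th to 95th percentile of 0.041 to 0.53, above which lay JUN, CITED2 and IER3.

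The number of genes of the other compartment with r of at least 0.85 was counted on those values too, and it is a description, as such coefficients were used in the choice. CITED2 had 13 such cumulus genes when measured in oocytes and 16 such oocyte genes when measured in cumulus cells. NFKB1 had 5 and 1, JUN 2 and 1, and IER3 0 and 0, its highest coefficient being 0.82. Of all genes 2.57% in oocytes and 8.38% in cumulus cells had at least 1. Once counts were also scaled to the library total, 0 and 1 were left for CITED2, 0 and 0 for NFKB1, 1 and 0 for JUN and 0 and 0 for IER3, and 4.67% and 4.73% of all genes had at least 1. The coefficients of a gene share the same 19 complexes, and in the first form also the library totals.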

How the data were processed

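Total RNA from 19 oocytes and from the cumulus cells of each was made into cDNA, amplified and sequenced. The authors trimmed the reads, aligned them to ARS-UCD1.2 with HISAT2 2.1.0, filtered (Samtools) and sorted (Picard) the alignments, dropped duplicates, and counted reads per Ensembl gene with featureCounts 1.6.0 (versions per the labels). The deposited values are raw counts, 27607 identifiers in 1 table per compartment. Everything else was computed here.

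Groups and complex numbers were taken from the sample labels. The 4 genes and the gene lists were chosen with earlier results of these data known. Symbols, known for 4934 identifiers, came from copies of the supplementary tables, the 2 longest truncated. Genes were kept in a compartment where 9 or more of its 19 libraries exceeded 2 CPM, 12753 for oocytes and 12313 for cumulus cells. Counts were tested with edgeR 4.0.16 in R 4.3.3 (TMM, robust dispersions, quasi-likelihood test, Benjamini-Hochberg adjustment over all genes, threshold 0.01), after a trial on simulated data. Oocyte and cumulus libraries share a number because they come from the same complex. Their deviations from group means correlated with a median r of 0.08 (-0.02 to 0.21 over 19 complexes), beside a median of -0.006 with other complexes. Of the 19 oocytes 9 correlated best with their own cumulus cells. The main test between compartments does not use this pairing, and the fit with the complex as a block is an alternative. Further alternatives were DESeq2 1.42.0, edgeR's likelihood-ratio test without TMM, library totals, DESeq2's size factors, other filters, covariates (run, log10 total), exclusion of 13 mitochondrial genes and exclusion of each library. Leaving out libraries with markers of the other compartment, and the oocyte of complex 72 from the coefficients of variation, was added after seeing the data. Genes named are the 4 genes, the 5 called list members of largest fold change in each comparison, and the 3 most alike genes. Counting error weighs more in libraries with fewer counts. Correlations were computed in Python 3.11.15 with pandas 2.3.3, numpy 2.4.6 and scipy 1.17.1, and plots drawn with matplotlib 3.10.9. No sequences or coordinates are given, since no annotation of the files' build was used here.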

Additional observations from a re-analysis of the deposited data

Results flagged for a closer look

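Among 16 sets of values, 4 genes in 4 groups of 9 or 10 libraries, 2 had a library whose gap to the next passed Dixon's critical value. Chance alone passes that value in about 1 of 20 groups of normally distributed values. The gaps were taken on levels that were not logged, where this rate need not hold. Both are the BCB positive oocyte of complex 72. The oocyte values were part of the choice of the 4 genes, so the gaps are given as a description and not as a test. Its JUN level was 325.7 TMM-scaled CPM with the next at 130.9, a gap of 0.655 of the range of the group. Its IER3 level was 18.84 TMM-scaled CPM with the next at 9.00, a gap of 0.588. The same oocyte had the highest summed level of cumulus markers, 8.88% of that of its own cumulus cells, and the part of cumulus RNA in its JUN and IER3 was not tested.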

How the results depend on the processing

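Most log2 fold changes of the 4 genes kept their direction and their side of the threshold. Among 263 of them under alternatives other than leaving out single libraries, 224 kept both, or, where not tested, moved by less than their error, 3 moved by more, 24 turned in sign and 12 newly passed the threshold. The counts of genes called across all genes moved with the test, the scaling, the filter and the libraries. In cumulus cells by BCB class 69 genes were called, against 364 by DESeq2, 2480 by the likelihood-ratio test without TMM, 1704 with library totals alone, 164 with no filter, 115 with the run as covariate, 2 with the log10 library total as covariate and 10 without complexes 66 and 68, whose cumulus libraries held over 1% of the oocyte markers. Between compartments 19168 were called with no filter. In BCB negative cumulus cells by run DESeq2 called 3, the likelihood-ratio test 2 and the fit with no filter 3. In BCB negative oocytes by run DESeq2 called 621, the likelihood-ratio test 396, and library totals or leaving out the oocytes with cumulus markers 0 each. In cumulus cells of complexes 65 to 74 DESeq2 called 266, the likelihood-ratio test 3892, library totals 2307, no filter 749, a filter met in all libraries 51, and the fit without complexes 66 and 68, which keeps 1 BCB negative library and assumes that it varies like the others, 0. In oocytes of those complexes DESeq2 called 479 and the likelihood-ratio test 130. In the interaction of run and compartment DESeq2 called 35, the likelihood-ratio test 23 and no filter 35. The cause was not tested.

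The log2 fold changes that turned in sign were these. In cumulus cells by BCB class JUN was 0.42 with the likelihood-ratio test and with library totals and 0.034 with no filter, and NFKB1 was 0.43 with both, 0.039 with no filter, 0.34 with the log10 total as covariate and 0.013 without complexes 66 and 68. IER3 was -0.45 with the log10 total as covariate, and CITED2 was 0.21 with the run as covariate. Between compartments CITED2 was 0.31 with the likelihood-ratio test and with library totals. In BCB negative cumulus cells by run JUN was 0.12 with both, and NFKB1 was 0.25 with both, 0.055 with no filter and 0.35 without complexes 66 and 68. In cumulus cells of complexes 65 to 74 NFKB1 was 0.41 with both and 0.37 without complexes 66 and 68. In the interaction IER3 was -0.18 with the likelihood-ratio test, -0.19 with library totals and -0.22 without complexes 66 and 68.

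Leaving out 1 library at a time, the count of genes called in cumulus cells by BCB class ran from 6 to 160, with 6 without complex 24, 160 without complex 89 and 138 without complex 88, and it stayed within 1.5 times of 69 only without complex 87 or 90. In BCB negative oocytes by run it ran from 0 to 261, with 261 without complex 6, 20 without complex 87 and 0 without each of the others. In cumulus cells of complexes 65 to 74 it ran from 34, without complex 68, to 89, with 52 without complex 70, and in their oocytes from 0 to 1, with 1 without complex 66. In cumulus cells by BCB class JUN ran from -0.26 to 0.14 (positive without complex 6 or 91), NFKB1 from -0.16 to 0.015 (positive without complex 71 or 86) and IER3 from -0.0035 to 0.36 (negative without complex 72). In BCB negative cumulus cells by run JUN ran from -0.46 to 0.57 (positive without complex 6) and NFKB1 from -0.23 to 0.092 (positive without complex 66, 68 or 89). In cumulus cells of complexes 65 to 74 JUN ran from 0.30 to 0.84 and IER3 from 0.39 to 1.17. NFKB1 ran there from -0.66 to -0.17 and CITED2 from 0.69 to 1.26. Over the 7 alternatives with all or most libraries, JUN ran there from 0.13 to 1.36.

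With the complex as a replicate block the compartment differences were -4.65 for JUN, -3.92 for IER3, 0.36 for NFKB1 and -0.15 for CITED2, and the block changed no call of the 4 genes. No paired analysis was possible for the BCB comparisons or for those of runs within a compartment, because their groups share no complex number. The depth of cumulus libraries limits the cumulus comparisons, where CITED2 rested on 23 counts and NFKB1 on 21 in complex 65. Whole-genome shifts between scalings, the overlap of BCB class with run and the small number of BCB negative complexes from 65 to 74 limit the rest.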
